A study of Zea mays with 4 samples.

Results

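The genes described here make oxylipins, the oxidised fatty acids from which plants build jasmonate, and were followed in the ear internode of maize. Members were the probe sets whose gene symbol or synonym was lox, aos, aoc or opr followed by a number, a rule on names that uses no measured value. The rule found 13 probe sets of 9 genes among 17621 probe sets without controls, of which 1452 carry the name of 1 gene. The study hybridised RNA of the stem internode at the ear, from the inbred line F271, to 4 Affymetrix maize arrays, 2 at tassel emergence and 2 at early silking. F271 is, per the labels, the unfavourable parent in a cross mapped for lignin content and cell wall degradability. All F271 plants were untreated and grown in an irrigated field during a hot, dry summer, and the groups differ by label in developmental stage. The labels do not say whether the 2 arrays of a stage came from separate plants, and the spread behind each p-value may therefore be technical only.

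Lipoxygenases (LOX) add oxygen to polyunsaturated fatty acids at one or the other of a pair of carbons, and the carbon chosen sets which branch the product enters. In the jasmonate branch, allene oxide synthase (AOS), a cytochrome P450, and allene oxide cyclase (AOC) turn the hydroperoxide into oxophytodienoic acid in the plastid. An oxophytodienoic acid reductase (OPR) then acts in the peroxisome before the side chain is shortened. In maize opr7 and opr8 are the reductases needed for jasmonate, and a part of opr1, opr3 and opr5 in it was not tested. In maize, jasmonate is known for wound and herbivore responses and for the loss of pistils in the tassel, where ts1, a lipoxygenase gene also named lox8, is required.

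Between the stages, 1 of the 2 aoc1 probe sets was the member that differed most beyond the spread of its replicates, and it was lower at early silking, with a change of -1.50 on the log2 scale. It did not pass the threshold adjusted over all probe sets. The lipoxygenases lox1 and lox3 and the allene oxide synthase aos1 differed more between the replicates of tassel emergence than between the stage means. The reductase genes opr7 and opr8 ranged over 0.44 and 0.21 across the 4 arrays, and opr3 was at the lower end of the scale on every array.

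Values are log2 probe set summaries, so a difference of 1 is a 2-fold difference. A probe set was tested when it was above a log2 value of 4 on at least 2 of the 4 arrays, which kept 10782 of the 17621. Of the members, 10 probe sets of 8 genes were tested and 3 were not. 9 of the 10 were above 4 on all 4 arrays. The tenth, opr1, was above 4 only on the tassel emergence arrays, so it could enter the test only with that stage higher. RefSeq (Zm-B73-REFERENCE-NAM-5.0) lists 26 genes that match the rule, and 17 of them have no probe set named for them here, among them ts1, aos2, aoc2 and lox10. In that table lox1 lies directly beside lox2 and lox3 directly beside lox4, while 1 gene separates opr1 from opr2. Whether these probe sets also bind the transcripts of such near relatives was not tested, since probe sequences were not used here.

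**Figure D1:**
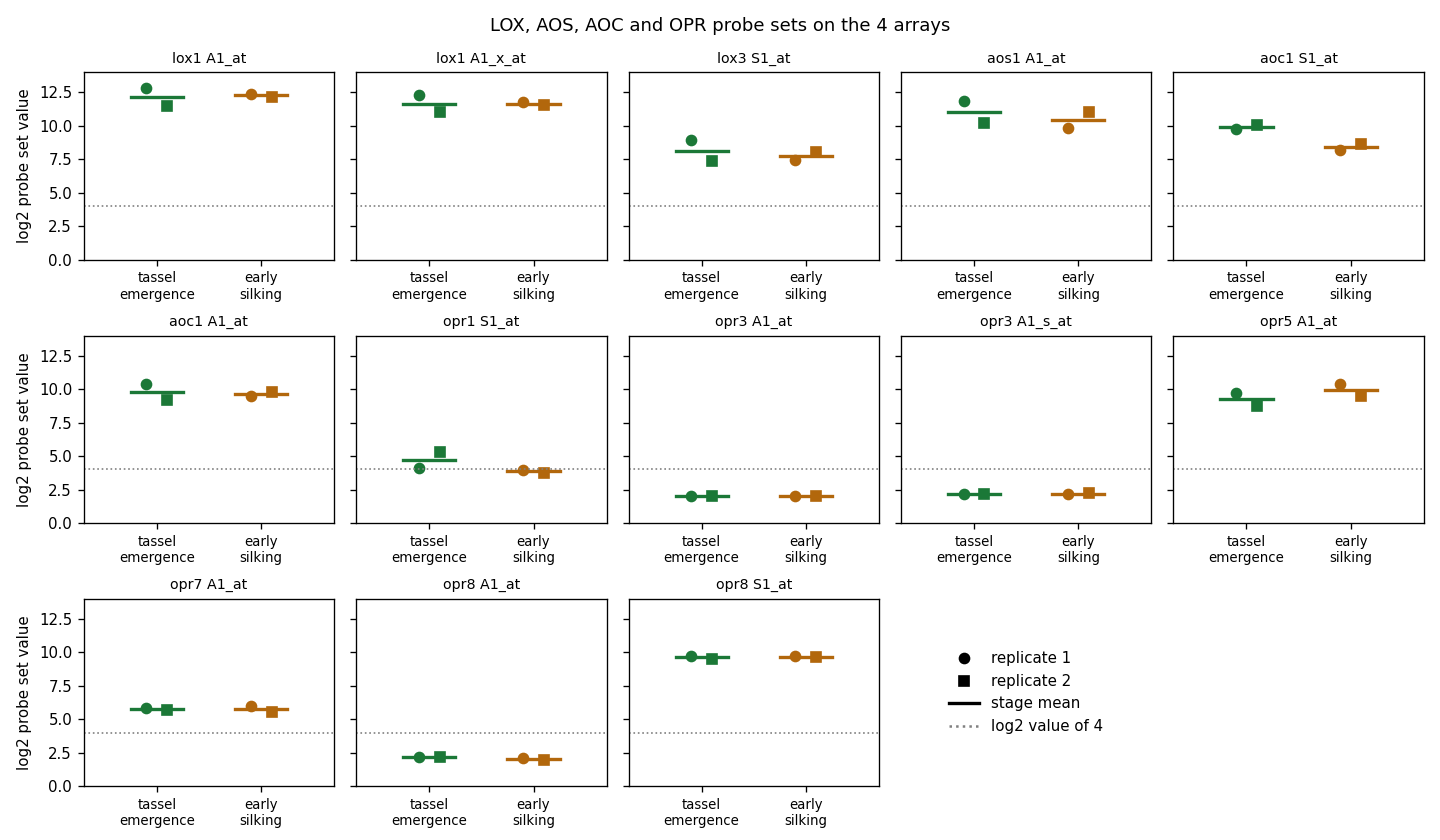
The log2 value (y axis) of each of the 13 probe sets on the tassel emergence (green) and early silking (brown) arrays, with circles for replicate 1, squares for replicate 2, bars for the mean of 2 arrays and a dotted line at 4. The aoc1 probe set S1_at is lower on both silking arrays, while lox1, lox3, aos1 and the other aoc1 probe set differ widely between the tassel emergence replicates.

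Differences in bulk tissue cannot tell fewer cells that express a gene from less RNA of it per cell. lox1 encodes a lipoxygenase that can oxygenate at either position. Its main probe set, A1_at, had log2 values of 12.83 and 11.52 in the tassel emergence replicates against 12.38 and 12.18 in the silking replicates. Both silking arrays fell between the tassel emergence arrays, so the stages overlapped. The stage means were 12.18 ± 0.93 (SD, n = 2) and 12.28 ± 0.14, a change of 0.10 (SE 0.50, limma adjusted p = 0.917). The 95% interval of the change ran from -1.30 to 1.50, which leaves room for a difference of more than 2-fold in either direction. The companion probe set A1_x_at, a type whose probes may bind other transcripts as well, had 12.30 and 11.02 and then 11.77 and 11.53. It shares its target with the first and ordered the 4 arrays the same way, with a change of -0.01 and an SE of 0.49.

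lox3 encodes a lipoxygenase of the branch that does not lead to jasmonate. Its probe set had log2 values of 8.94 and 7.37 in the tassel emergence replicates against 7.43 and 8.04 in the silking replicates. The first tassel emergence array stood above the other 3 arrays, and the second lay just below both silking arrays. The change was -0.42 with an SE of 0.62 and a 95% interval from -2.15 to 1.32 (limma adjusted p = 0.704).

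aos1 encodes the allene oxide synthase that commits a hydroperoxide to the jasmonate branch. Its log2 values were 11.89 and 10.20 in the tassel emergence replicates against 9.83 and 11.05 in the silking replicates, a range of 2.06 over the 4 arrays that no other tested member reached. The highest array was a tassel emergence array and the lowest a silking array, but the middle arrays were in the opposite order and the stages overlapped. The stage means were 11.05 ± 1.19 (SD, n = 2) and 10.44 ± 0.86, a change of -0.61 (SE 0.76, limma adjusted p = 0.648). The 95% interval from -2.73 to 1.51 was the widest among the tested members, so these arrays bound the stage change of aos1 poorly.

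aoc1 encodes allene oxide cyclase, which gives the jasmonate precursor its ring with the natural stereochemistry. The first of its probe sets, S1_at, had log2 values of 9.79 and 10.09 in the tassel emergence replicates against 8.20 and 8.68 in the silking replicates. Both silking arrays were below both tassel emergence arrays by more than the replicates of either stage differed. The change was -1.50 with an SE of 0.26 and a 95% interval from -2.23 to -0.77, a level at silking 0.353 times that at tassel emergence. The unadjusted p was 0.00477 and the adjusted p 0.103 (limma), so the probe set did not pass a threshold of 0.05 over all tested probe sets.

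The other aoc1 probe set, A1_at, had 10.39 and 9.20 in the tassel emergence replicates against 9.46 and 9.81 in the silking replicates. Its silking values lay inside the tassel emergence range. The change was -0.16 with an SE of 0.47 and a 95% interval from -1.48 to 1.17 (limma adjusted p = 0.863). The annotation gives both probe sets to aoc1 and none to the second cyclase gene, aoc2. The difference between the changes of the 2 probe sets was not tested, and a lower level of aoc1 at silking rests on 1 of them.

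**Figure D2:**
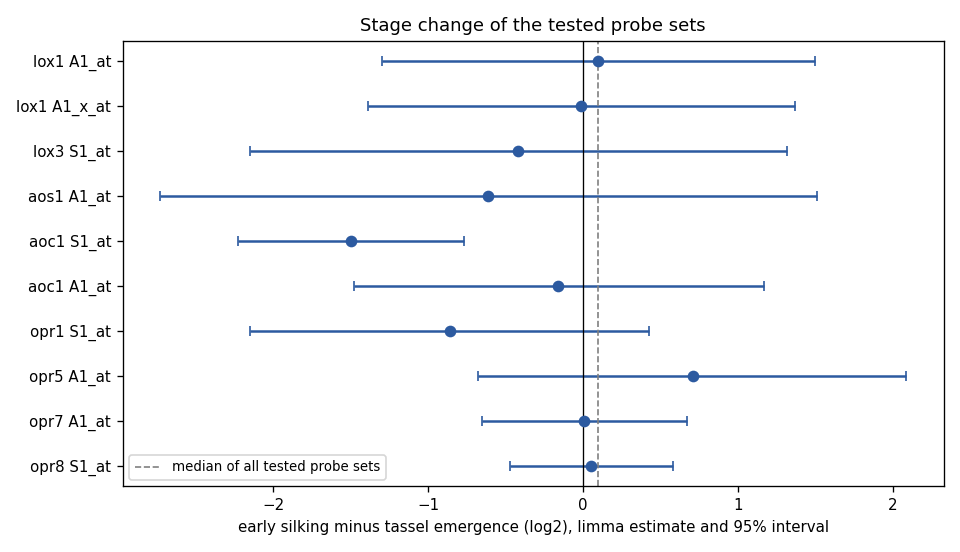
Early silking minus tassel emergence on the log2 scale (x axis) for the 10 tested probe sets, with limma estimates as points, 95% intervals as bars and the median of all tested probe sets, 0.10, as a dashed line. Only the interval of the aoc1 probe set S1_at, from -2.23 to -0.77, leaves out 0.

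opr7 and opr8 encode the reductases needed for jasmonate in maize, where plants that lack both form pistils in the tassel. The opr7 probe set had log2 values of 5.84 and 5.72 in the tassel emergence replicates against 6.02 and 5.57 in the silking replicates. Its silking arrays enclosed the tassel emergence arrays. The change was 0.01 with an SE of 0.24 and a 95% interval from -0.65 to 0.67 (limma adjusted p = 0.976). The opr8 probe set S1_at had 9.74 and 9.53 and then 9.72 and 9.65, the narrowest range of the tested members. Its change was 0.05 (SE 0.19, limma adjusted p = 0.885). The 95% interval from -0.47 to 0.58 corresponds to a silking level between 0.721 and 1.49 times that of tassel emergence, so a 2-fold stage change of this probe set lies outside it. The same holds for opr7, with 0.639 to 1.60 times. Both bounds belong to the fit of stage alone, and the replicate spread behind them may be technical only. A second opr8 probe set, A1_at, was listed between 1.94 and 2.20 on all arrays and was not tested, so opr8 was read from 1 of its 2 probe sets.

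opr5, another member of the reductase family, was the tested member with the highest positive change. Its log2 values were 9.72 and 8.75 in the tassel emergence replicates against 10.39 and 9.50 in the silking replicates. The lower silking array was below the higher tassel emergence array, so the stages overlapped by 1 array. The change was 0.71 with an SE of 0.50 and a 95% interval from -0.68 to 2.09 (limma adjusted p = 0.426). opr1, also of that family, had 4.12 and 5.31 in the tassel emergence replicates against 3.98 and 3.73 in the silking replicates. Its stages did not overlap, yet the nearest arrays, at 4.12 and 3.98, were closer than the tassel emergence replicates, and both silking values were below 4. The change was -0.86 (SE 0.46, limma adjusted p = 0.321). With quantile normalized values the stages of opr1 overlapped.

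Both opr3 probe sets were at the bottom of the scale. The A1_at values were all near 2 and spanned 0.03 over the arrays, and those of A1_s_at lay between 2.18 and 2.21, and neither was tested. At such values a probe set gives only a bound, and 36.6% of the probe sets without controls were at or below 4 on all 4 arrays. No stage change of opr3 could be measured.

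Counted together, none of the 10 tested members passed an adjusted p of 0.05, and neither did any of the 10782 tested probe sets (0% called, limma). With crossed replicate pairs as a block, an alternative chosen after seeing the data, 357 of the 10782 tested probe sets passed. Of the 10 tested members 0 did, and at so small a share a count of 0 does not set them apart. An unadjusted p under 0.05 was reached by 1 member, aoc1 S1_at, beside 24.8% of all tested probe sets. The stages did not overlap for 2 members, both lower at silking, of which opr1 could enter only in that direction. Over all tested probe sets, 59.7% had stages that did not overlap, 24.9% lower and 34.9% higher. These shares describe all tested probe sets, and the members' counts were not above them. The median change of the members was -0.08, with 6 negative and 4 positive, beside 0.10 over everything tested. A permutation of 1 probe set over 2 against 2 arrays cannot give a 2-sided p under 0.333.

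The replicates of tassel emergence differed widely for most lipoxygenase, AOS and AOC probe sets. Replicate 1 exceeded replicate 2 by 1.69 for aos1, by 1.57 for lox3, by 1.31 and 1.28 for the 2 lox1 probe sets and by 1.20 for aoc1 A1_at. For aos1 that is a 3.22-fold difference between arrays of the same label, and 94.8% of tested probe sets had a smaller one in size. opr1 ran the other way, with -1.18 as replicate 1 minus replicate 2. Of the 10 tested members, 6 differed by at least 1 between these arrays, against 14.2% of all tested probe sets. The median size of the difference was 1.19 in the members and 0.33 in all tested probe sets. lox1 counts here with 2 probe sets of the same target, and the count was chosen after the values had been seen.

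At early silking the members' replicates were closer, with a median difference of 0.40 in size against 0.26 in all tested probe sets. aos1 was again the member with the widest gap, replicate 2 exceeding replicate 1 by 1.22, a 2.32-fold difference, and 95.0% of tested probe sets had a smaller gap. It was the 1 member of 10 that differed by at least 1 there, beside 7.61% of all tested probe sets. The opr5 replicates differed by 0.89 with replicate 1 higher, and those of opr8 by 0.06.

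**Figure D3:**
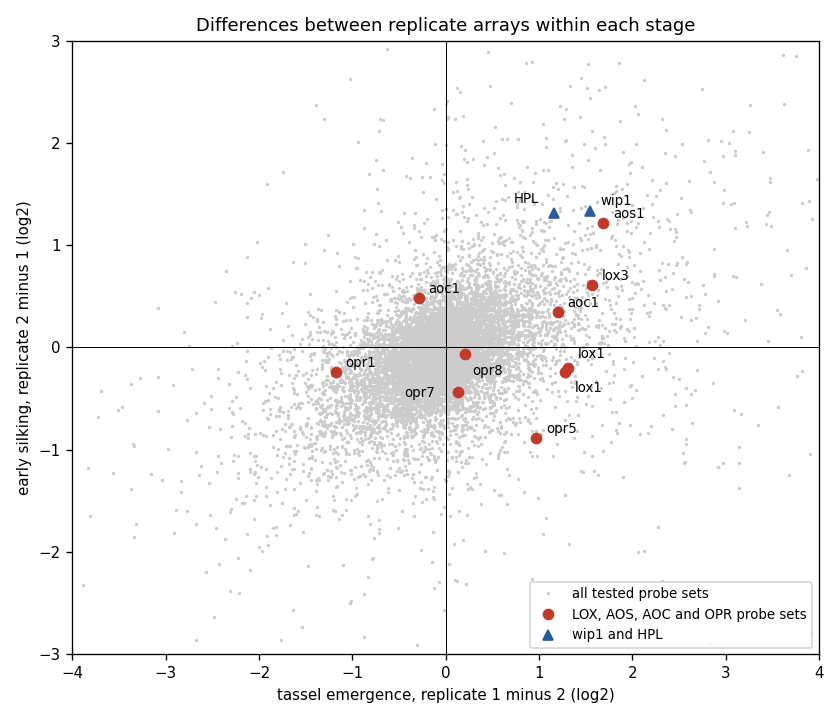
Replicate 1 minus 2 at tassel emergence (x axis) against replicate 2 minus 1 at early silking (y axis), on the log2 scale, for all tested probe sets (grey, 77 beyond the axes), the 10 tested members (red circles) and wip1 and HPL (blue triangles). aos1, at 1.69 and 1.22, lies beside wip1, at 1.55 and 1.33, and opr7 and opr8 lie near 0.

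In 3 members, lox3, aos1 and aoc1 A1_at, tassel emergence replicate 1 was above replicate 2 and early silking replicate 2 above replicate 1. The same order was found for 27.8% of all tested probe sets, so the count is near the background. Control measures on the arrays had this order too. The gap between the 3' and 5' probe sets of 5 maize control transcripts, which depends on RNA integrity and on amplification, averaged 4.57 and 2.88 on the log2 scale at tassel emergence and 1.84 and 2.37 at early silking. The spikes added for hybridisation (bioB, bioC, bioD and cre) averaged 11.55 and 10.49 and then 11.22 and 12.29, and all 9 of their probe sets had the order. The RNA amounts in the labels were 290 and 440 ng and then 340 and 400 ng, lower for replicate 1 at both stages.

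With the 3' minus 5' gap as a covariate, the stage change of lox3 was 1.12, that of aos1 1.20 and that of aoc1 A1_at 0.99, each opposite in sign to the fit without it. The changes of lox1 were 1.19 and 1.04, that of opr1 -1.96 and that of opr5 1.31. The aoc1 probe set S1_at had -1.63 with an SE of 0.43 and kept its sign, and opr7 and opr8 were at 0.01 and 0.22. None of these passed over all probe sets (limma, smallest adjusted p = 0.0781, for opr1). With the covariate 4 member probe sets reached an unadjusted p under 0.05 (limma), against 1 without it. Over all 10782 tested probe sets 2671 did so, against 2679 without it. The gap itself differed by a mean of -1.63 as silking minus tassel emergence, so stage and gap cannot be fully told apart on 4 arrays.

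**Figure D4:**
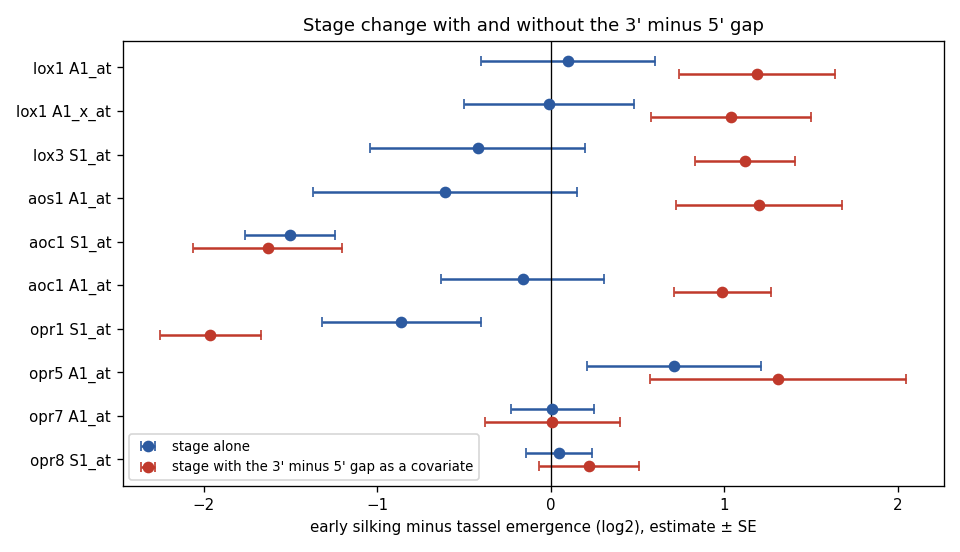
Early silking minus tassel emergence on the log2 scale (x axis, estimate ± SE) for the 10 tested probe sets, fitted with stage alone (blue) and with the 3' minus 5' gap as a covariate (red). lox3, aos1, aoc1 A1_at and lox1 A1_x_at move from below 0 to between 0.99 and 1.20, while aoc1 S1_at stays at -1.50 and -1.63.

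Genes that supply, compete with or respond to this branch were taken from a list by name, of which 5 of 6 probe sets were tested and none passed. 3 were lower at silking without overlap and 2 overlapped, with a median change of -0.71. Over all tested probe sets 24.9% were lower without overlap and 59.7% did not overlap in either direction, and the median change was 0.10. FAD8, a plastid desaturase that makes the trienoic fatty acid used for jasmonate, had log2 values of 8.26 and 8.76 in the tassel emergence replicates against 6.43 and 6.44 in the silking replicates. Both silking arrays were far below both tassel emergence arrays, a change of -2.07 (SE 0.25, limma unadjusted p = 0.00114, adjusted p = 0.0864). The related desaturase gene fad7 had 10.04 and 10.42 and then 10.23 and 9.82, with overlapping stages and a change of -0.20. HPL, a hydroperoxide lyase that draws on the same hydroperoxides to make volatile aldehydes, had 7.46 and 6.30 and then 4.36 and 5.67.

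The stages of HPL did not overlap, and its change was -1.86 (SE 0.65, limma adjusted p = 0.193). myc7, also named MYC2a and thus by name a factor of the jasmonate response, had 9.40 and 9.32 in the tassel emergence replicates against 8.46 and 8.85 in the silking replicates, lower without overlap (change -0.71, limma, adjusted p = 0.171). ts2, a dehydrogenase gene of tassel sex determination, was listed at 1.88 to 1.91 on all arrays and was not tested. The list also took in dad1, whose synonym fdad1 does not mark it as the phospholipase of that name and which had a change of 0.03.

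Of 15 probe sets on a list of wound and defence response genes, 12 were tested and none passed. Of these, 5 were lower and 2 higher without overlap, beside 24.9% and 34.9% of all tested probe sets, and the median change was -0.15 beside 0.10. The 5 include both probe sets of bx6, and 1 of PRP, which the list took in by its name. wip1, a protease inhibitor induced by wounding, had log2 values of 6.60 and 5.05 in the tassel emergence replicates against 5.16 and 6.50 in the silking replicates. Each stage held a high and a low array, and the stage change was 0.01 (SE 0.75, limma adjusted p = 0.997). Its order of the arrays within each stage was that of aos1. The benzoxazinoid genes bx1 and bx6 were lower without overlap. bx1 had 10.33 and 11.04 and then 9.37 and 7.59, a change of -2.20 (adjusted p = 0.177). The 2 probe sets of bx6 had changes of -1.45 and -1.27 (adjusted p = 0.165 and 0.179).

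The pathogenesis-related gene PR-5 was higher without overlap, with a change of 0.86 (limma adjusted p = 0.202), as was the chitinase gene chn1, with 0.68 (adjusted p = 0.427). PR-1 had 3.84 and 6.60 and then 7.04 and 6.32, with overlapping stages and a change of 1.46. The cystatin gene cc7 had -0.63 and was lower without overlap, while cc3, stc1 and prp2 were not tested. Of these, prp2 was above 4 on 1 array, at 6.61 on tassel emergence replicate 1, and at 2.13 to 3.53 on the others. igl1, an enzyme gene of indole release, had values from 6.76 to 6.88 and a change of 0.02. The list also took in PIS (-0.31), a lipid enzyme gene, and PRP, named as a splicing factor too, whose 2 probe sets had -0.74 and 0.02.

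**Figure D5:**
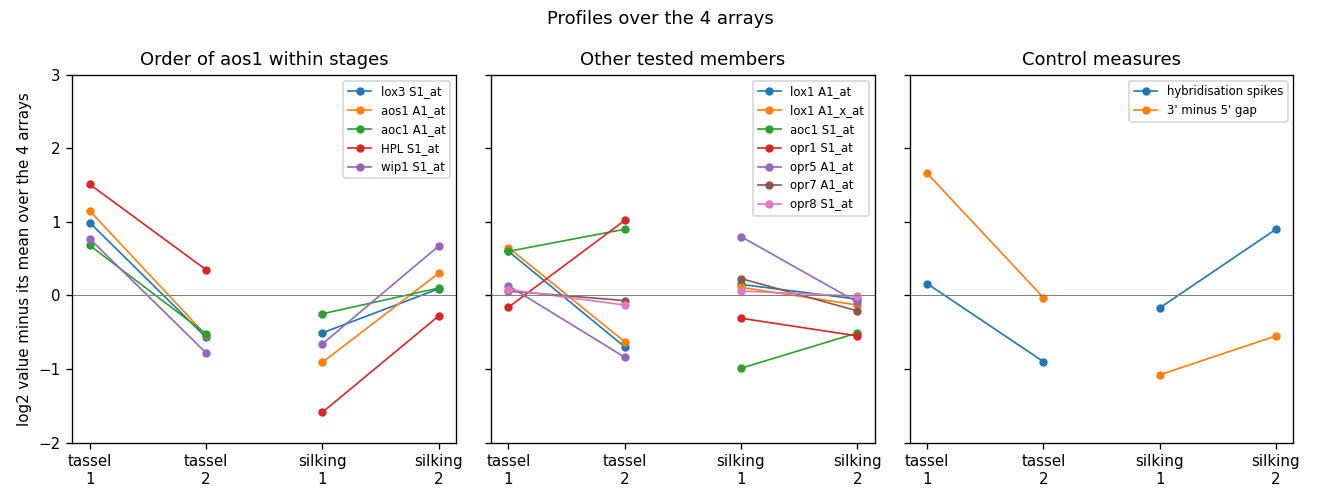
Log2 values minus their mean over the 4 arrays (y axis) on each array (x axis), with lines joining the 2 replicates of a stage, for the members with the order of aos1 beside wip1 and HPL (left), the other tested members (middle) and the mean hybridisation spike and 3' minus 5' gap (right). aos1 and wip1 are above their means on tassel replicate 1 and silking replicate 2, as is the spike mean.

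The named genes closest to each member were taken among 799 by the root mean square distance between values centred on each gene's mean over the 4 arrays, which describes 4 points and no shared control. For aos1 they were a gene listed as LOC542227 (distance 0.23), lox3 (0.24) and ERF1, by name an ethylene response factor (0.26), where the spread of aos1 itself about its mean was 0.80. For lox3 they were mha4, a plasma membrane proton pump (0.13), MNB1a, a Dof factor (0.18), and aoc1 A1_at (0.21). aoc1 A1_at in turn was closest to IDDveg9 (0.07), GLB1, here a haemoglobin by its synonyms (0.13), and drh1 (0.15). lox3 was thus near aos1, and the A1_at probe set of aoc1 near lox3. The spikes and the 3' minus 5' gap had the same order within stages, as had 27.8% of all tested probe sets. A part of the arrays in this likeness was not tested. The S1_at probe set of aoc1 was not compared, since 1 probe set, that with the highest mean, stood for each gene.

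For lox1 the closest were cl364_1 (0.06), SE1A (0.12) and LOC541975 (0.14). opr1 was closest to LOC541946 (0.11), the gamma-tubulin gene TUBC (0.14) and ypt2, a small GTPase (0.15), all with their highest value on tassel emergence replicate 2. opr5 had no gene nearer than LAC1 (0.26), with cl25041_1a and fea2, a receptor-like protein of meristem size, both at 0.29. The nearest to opr7 were LOC542103 and GB1, a G protein beta subunit (0.06 each), and PUMP, a mitochondrial uncoupling protein (0.07). phb1, a prohibitin, hp2 and rmr7, a polymerase subunit gene, were all at 0.04 from opr8. opr7 and opr8 spread by 0.16 and 0.08 about their means, so any gene that hardly varied was close to them.

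Marker genes were read as a check of the labelled tissue. All 4 secondary wall markers of stems (bk2, cesa10, cesa11 and CesA12) lay between 9.82 and 13.41 on every array. Their summed log2 values ranged from 50.51 to 52.23 at tassel emergence and from 41.22 to 42.80 at early silking. All 4 were lower at silking without overlap, beside 24.9% of all tested probe sets. Their changes were -2.65, -2.27, -2.47 and -1.97 in that order, with a median of -2.37 beside 0.10 over all tested probe sets. Each was larger in size than the -1.50 of the aoc1 probe set S1_at. None of the 4 passed over all tested probe sets (limma adjusted p from 0.0864 to 0.0898). Of 16 probe sets of kernel storage genes, 14 were at or below 4 on all arrays, and the 2 others were GLB1, the haemoglobin, and 1 probe set of gz27. GLB1 lay between 8.25 and 9.08 and that gz27 probe set between 5.99 and 6.97. Summed over all 16, the log2 values were 44.96 to 45.73 at tassel emergence and 44.74 to 44.98 at silking. These sums include the 14 at or below 4. Of 20 probe sets on a list of floral genes taken by name, 14 were at or below 4, with ZAG1 and zag2 among them. zmm19 (12.15 to 12.36), zap1 (10.95 to 12.30) and kn1 (10.78 to 11.42) were in the range of the stem markers. Whether they are particular to floral tissue was not tested. zmm24 (8.01 to 9.27), zmm16 (4.53 to 5.34) and zmm31 (4.34 to 4.93) were above 4 too, with overlapping stages. zap1 (change 1.19), kn1 (0.58) and zmm19 (0.16) were higher at silking without overlap, beside 34.9% of all tested probe sets. The sums over all 20 were 81.46 to 81.56 and then 82.45 to 84.18. Of 9 photosynthesis probe sets, 6 were above 4 and had positive changes, with a median of 0.49 beside 0.10 over all tested probe sets. The stages of 4 of them overlapped. The other 2, psaN and rbcS, were higher at silking without overlap, beside 34.9% of all tested probe sets. Those 6 lay between 6.92 (pep1) and 14.42 (Cab-m7), the latter above every stem marker value. The sums over all 9, with those at or below 4 included, were 73.85 to 79.42 and then 77.41 to 81.76. The part of these markers in the members' values was not tested.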

How the data were processed

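RNA of 4 samples was measured on Affymetrix maize arrays. Per the submitters' processing notes the deposited values were made with GCRMA, which subtracts background by probe sequence. Its version is not given in the sources used here. The log2 scale of the deposited values follows from their range, 1.36 to 15.29, and the medians without controls lay between 6.35 and 6.51. Groups and replicate numbers came from the labels, and the small number of arrays limits precision. The 113 controls whose names start with AFFX were left out, while a probe set with the prefix RPTR stayed among those tested. Symbols came from the platform annotation, updated through RefSeq, where 1060 of 1108 named genes matched, and 1 probe set with several genes was left unnamed.

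Stage was fitted on all 10782 tested probe sets by lmFit and eBayes of limma (version 3.58.1, under R 4.3.3), with no term for the replicate number. The p-values were 2-sided and adjusted after Benjamini-Hochberg, with a threshold of 0.05. The fit was checked on simulated data with independent errors, so the check does not cover differences shared across an array. Genes described in the text were every member, every gene of both response lists and the 3 closest genes per member. The members and lists were chosen with earlier results of these data known. The replicate numbers were not taken as pairs, since the replicate differences of the stages correlated at -0.422 across tested probe sets. No sequence was printed, since none was in the files used here. Alternatives were the replicate block, other filters, scalings, an intensity trend, the gap covariate, left-out arrays and adjustment over the 800 tested genes that the platform table names, each by its probe set with the highest mean.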

Additional observations from a re-analysis of the deposited data

How the results depend on the processing

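No member passed an adjusted p of 0.05 under any alternative that tested it. opr1 and opr7 were not tested at a mean above 6, nor were aoc1 S1_at and lox1 A1_x_at in the adjustment over named genes, which takes 1 probe set per gene. The 76 member values under alternatives that kept all arrays changed sign in 5. With the 3' minus 5' gap as a covariate these were lox3 (1.12), aos1 (1.20), aoc1 A1_at (0.99) and lox1 A1_x_at (1.04), and with centred arrays the latter was at 0.05. The causes were not tested. Leaving out each array in turn gave -0.55 to 0.75 and -0.65 to 0.63 for the lox1 probe sets, -1.20 to 0.37 for lox3, -1.45 to 0.24 for aos1, -1.74 to -1.26 and -0.75 to 0.44 for the aoc1 probe sets, -1.45 to -0.27 for opr1, 0.22 to 1.19 for opr5, -0.21 to 0.24 for opr7 and -0.06 to 0.16 for opr8. Of these 40 values, 10 changed sign. Without tassel emergence replicate 1 the signs of lox3 (0.37), aos1 (0.24), aoc1 A1_at (0.44) and lox1 A1_x_at (0.63) turned. The stages of 1 member did not overlap with quantile values, where opr1 was lost, and those of 3 with centred arrays, where opr8 was higher. Over all tested probe sets the count called stayed at 0 except for 28 of the 800 named genes when adjusted over these, where none of the 8 member probe sets included passed, aoc1 S1_at not being among them. The replicate block gave 0 called, with 1594 at an unadjusted p under 0.05 against 2679 without it, and changed no call. Crossed pairs, added after seeing the data, gave 357 called of 10782 tested probe sets. Rescaling moved the overall median change from 0.104 to 0.127 (quantile) and 0.171 (centred).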
